A study of Mus musculus with 48 samples.

Results

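The genes described here are 35 genes of the PPARalpha programme and of fatty acid oxidation, out of 22354 genes in a liver RNA-seq count table. They were taken by symbol from a fixed list, and all 35 were found in the table and passed the filter on low counts. The list holds the receptor Ppara and the liver-enriched regulator Creb3l3. It holds 4 genes of fatty acid uptake, binding and activation (Cd36, Slc27a2, Fabp1, Acsl1) and 4 of the carnitine shuttle (Cpt1a, Slc25a20, Cpt2, Crat). The largest group is 11 genes of mitochondrial beta-oxidation (Acadvl, Acadl, Acadm, Acads, Hadha, Hadhb, Hadh, Acaa2, Decr1, Ech1, Etfdh). Then come 4 peroxisomal genes (Ehhadh, Acaa1a, Acaa1b, Pex11a) and 3 acyl-CoA thioesterases (Acot1, Acot3, Acot4). A further 3 genes act in ketone metabolism, the pyruvate switch and uncoupling (Bdh1, Pdk4, Ucp2), and the last 4 encode secreted, surface or lipid droplet proteins (Fgf21, Angptl4, Vnn1, Plin2).

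The study asked how livers over 24 h differ when Bmal1, a transcription factor of the circadian clock listed as Arntl in the table, is deleted with a fat cell driver. The KO group was Bmal1 fx/fx mice carrying aP2-Cre, and the WT group was their littermate controls; both are on the C57BL/6 strain and are given as males of 4 to 6 months. All mice had free access to food, spent 36 h in constant darkness and were killed in darkness at 0, 4, 8, 12, 16 or 20 h, the collection times used below. There were 48 livers, each with its own library: 23 KO and 25 WT, 4 per genotype and time except 3 KO and 5 WT at 16 h. The aP2 (Fabp4) promoter is a fat cell driver that macrophages and endothelial cells can also use, and recombination in fat was not measured in these livers.

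Depth was nearly equal, at 12841969 to 13009797 counts per library with Alb left out. Levels are given as CPM, counts scaled to library size. The mean level of Arntl in KO livers was 32.4 ± 4.01 CPM at 0 h, against 37.0 ± 5.94 CPM in WT livers, and at 8 h it was 3.68 ± 2.14 CPM in KO livers, against 2.14 ± 0.71 CPM in WT livers (SD, n = 4 each). Its mean difference was 0.30 ± 0.16 on the log2 scale (SE, edgeR adjusted p = 0.347). This average can hide differences of opposite sign, and it does not test timing. At 4 h the KO mean was 9.54 ± 2.75 CPM and the WT mean 21.1 ± 9.30 CPM. At 12 h the KO mean was 6.34 ± 5.15 CPM and the WT mean 2.015 ± 1.12 CPM. At 16 h they were 26.3 ± 8.74 CPM (n = 3) and 16.2 ± 2.92 CPM (n = 5). The group means rose and fell over the day in both genotypes, and the liver transcript checks nothing about fat. The labels give liver as tissue and adipocyte as cell type: the 7 tested hepatocyte markers summed to 14360 to 55200 CPM in KO livers and 20460 to 49690 CPM in WT livers, while Adipoq, the defining fat cell gene, had 20 counts in all KO libraries together and 26 in all WT libraries. Xist had 3029 to 13969 counts in every library and Uty, Kdm5d and Eif2s3y, which lie on the Y chromosome, had 1 count each in all, which goes against the stated sex. Pancreas markers summed to 128 CPM in KO 0 h replicate 2 (median 8.35 CPM in KO and 6.91 CPM in WT livers), and adrenal markers to 61.0 CPM in WT 0 h replicate 3 (medians 2.13 and 2.99 CPM). The acute-phase gene Saa1 had 54369 counts in KO 4 h replicate 2, 29715 in KO 20 h replicate 1 and 111674 in WT 0 h replicate 3 (median 593). KO 16 h replicate 2 gave 1.33% of its counts to the 35 genes, the smallest share of the 48 libraries, which ran up to 3.47%. KO 4 h replicate 1 stood apart from its group, as described with the single times.

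PPARalpha is a nuclear receptor that binds DNA as a heterodimer with RXR at direct repeats of AGGTCA spaced by a single base, and fatty acids act as its ligands. In liver it drives the fasting programme: fatty acids are taken up, activated to acyl-CoA, carried into mitochondria on carnitine or shortened in peroxisomes, oxidised, and turned into ketone bodies, while PDK4 spares pyruvate. Many of its targets follow the daily cycle of feeding and fasting.

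Over the 6 collection times together, 3 of the 35 genes were higher in KO livers, all of them proteins of the cell surface or of fatty acid uptake: Cd36 by 1.67-fold, Vnn1 by 1.60-fold and Slc27a2 by 1.24-fold. No gene of the 35 was lower. The other 32, among them every carnitine shuttle, beta-oxidation and peroxisomal gene of the list, did not pass the test. The test was edgeR's quasi-likelihood test with Benjamini-Hochberg adjustment over 13646 genes at 0.05; it called 0.623% of all genes higher in KO livers and 0.777% lower, 1.4% together. At an unadjusted p under 0.05, 10 of the 35 were higher and 0 lower, beside 17.1% of all genes in either direction. DESeq2 called the same 3 genes. Without the livers with pancreas or adrenal RNA and KO 16 h replicate 2 together, Fabp1 and Bdh1 were called as well. The log2 differences of the 35 genes had a median of 0.13 with 28 above 0 and 7 below, where all genes tested had a median of -0.00 with 6678 above and 6968 below. In whole liver, a change in the number of cells of a type cannot be told apart from a change in RNA per cell.

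**Figure D1:**
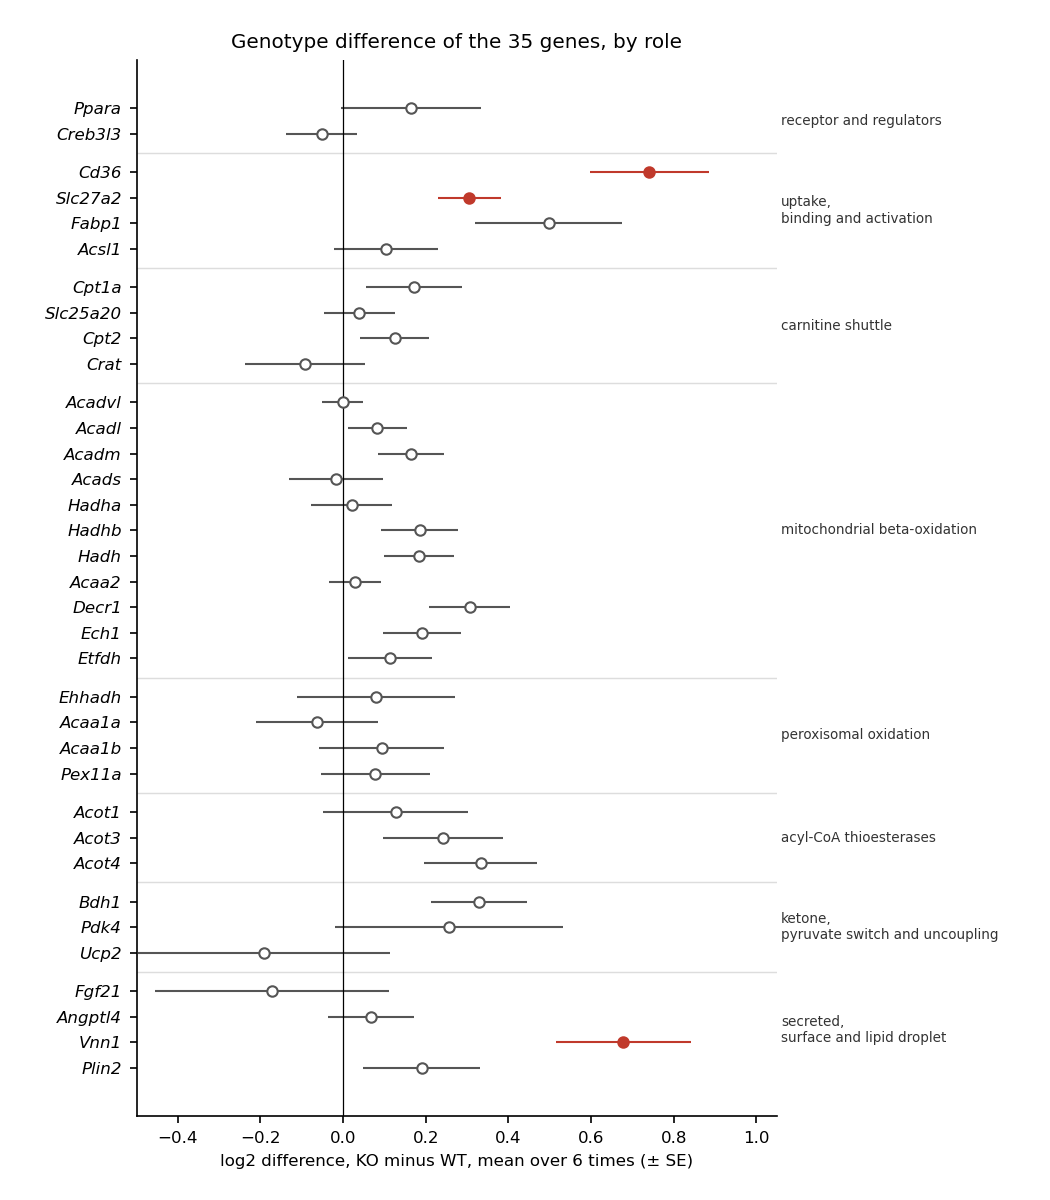
The log2 difference of KO minus WT averaged over the 6 times is plotted for each of the 35 genes (points, with bars of 1 SE), grouped by role; filled red points passed the test at an adjusted p of 0.05. Cd36, Vnn1 and Slc27a2 are the filled points, at 0.74, 0.68 and 0.31; the widest bars are those of Ucp2, Fgf21 and Pdk4.

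Cd36 (mm9 chr5:17287508-17394777) encodes the scavenger receptor that takes up long-chain fatty acids at the plasma membrane. It ran from 190 to 810 CPM in KO livers with a median of 447 CPM, and from 116 to 600 CPM in WT livers with a median of 243 CPM. At 0 h the KO livers had 398, 489, 342 and 495 CPM, against 304, 172, 229 and 284 CPM in WT livers. At 12 h they had 399, 404, 638 and 468 CPM, against 250, 226, 218 and 197 CPM in WT livers. The genotypes did not overlap at 0 h or 12 h, and the KO mean was above the WT mean at 6 of 6 times. The mean difference was 0.74 ± 0.14 (SE, log2; edgeR adjusted p = 0.00326). It kept its direction and its call in all 55 alternatives run, with adjusted p between 0.000171 and 0.0152.

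Slc27a2 (mm9 chr2:126378143-126413979) encodes FATP2, a fatty acid transporter with acyl-CoA synthetase activity. It ran from 1617 to 3234 CPM in KO livers with a median of 2476 CPM, and from 1440 to 3083 CPM in WT livers with a median of 2061 CPM. At 0 h the KO livers had 3189, 2476, 2702 and 2910 CPM, each above the WT livers with 2455, 2227, 2061 and 2049 CPM. The genotypes did not overlap at 0, 4 or 8 h, where the lowest KO livers had 2476, 2380 and 2062 CPM, against 2455, 2293 and 1953 CPM in the highest WT livers. They overlapped at 12, 16 and 20 h, and the KO mean was above the WT mean at 6 of 6 times. The mean difference was 0.31 ± 0.08 (SE, log2; edgeR adjusted p = 0.0298). The call was lost without KO 0 h replicate 1 (adjusted p = 0.0510), KO 4 h replicate 3 (0.0523), KO 8 h replicate 2 (0.0586), KO 12 h replicate 3 (0.0533), KO 20 h replicate 2 (0.0525), WT 8 h replicate 4 (0.0540) or WT 20 h replicate 4 (0.0589), and with no filter on low counts (0.0585), with the difference between 0.28 and 0.34 in all 55 alternatives.

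Vnn1 (mm9 chr10:23614494-23625149) encodes vanin-1, a membrane-anchored pantetheinase. It ran from 154 to 627 CPM in KO livers with a median of 374 CPM, and from 97.8 to 424 CPM in WT livers with a median of 230 CPM. At 0 h the KO livers had 474, 506, 306 and 472 CPM, against 311, 268, 213 and 229 CPM in WT livers. Only KO replicate 3 fell within the WT range at that time, and the KO mean was above the WT mean at 6 of 6 times. The mean difference was 0.68 ± 0.16 (SE, log2; edgeR adjusted p = 0.0219). Without KO 16 h replicate 3, which had 478 CPM, the adjusted p was 0.0591.

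The other 2 genes of the uptake group gave 0.50 ± 0.18 for Fabp1 (adjusted p = 0.149) and 0.10 ± 0.13 for Acsl1 (adjusted p = 0.665). Fabp1 (mm9 chr6:71149821-71155017), the fatty acid binding protein of liver cytosol, ran from 801 to 16380 CPM in KO livers with a median of 6214 CPM, and from 2188 to 12690 CPM in WT livers with a median of 4062 CPM. Both KO extremes lay outside the WT range. The lowest value was KO 16 h replicate 2 and the highest KO 4 h replicate 3. Without KO 16 h replicate 2 the difference was 0.58 with an adjusted p of 0.0227, and without KO 16 h replicate 3, which had 13600 CPM, it was 0.28 with an adjusted p of 0.501. The 3 KO livers at 16 h had 4200, 801 and 13600 CPM of Fabp1, against 4226, 7812, 2899, 3626 and 5967 CPM in the 5 WT livers, so a single KO liver decides this gene's value either way.

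**Figure D2:**
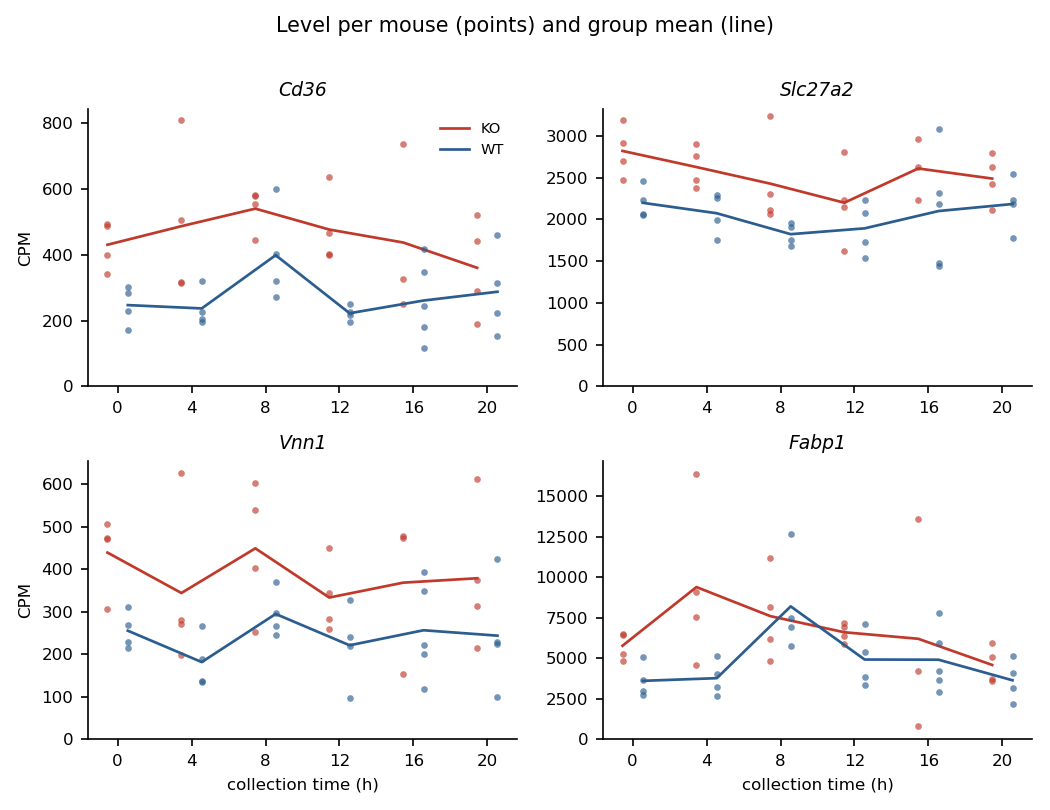
CPM (linear axis from 0) in each mouse (points) and the group mean (lines) are plotted against collection time in hours for Cd36, Slc27a2, Vnn1 and Fabp1, with KO in red to the left of WT in blue. The red line lies above the blue one at all 6 times for Cd36, Slc27a2 and Vnn1; for Fabp1 the KO mean is 7599 CPM at 8 h, against 8203 CPM in WT livers, and the KO points spread from 801 to 13600 CPM at 16 h.

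The promoters of 4 genes are shown because Cd36 and Slc27a2 carried the genotype difference, Fabp1 had the closest match to the receptor's element and Fgf21 holds an E-box; the other called gene, Vnn1, has no entry in the table used. They are RefSeq sequences of GRCm38.p6, the 250 bases before each annotated start, 5′ to 3′ on the gene's strand. Capitals mark AGGTCA or its reverse complement, the E-box CACGTG, and any 13-base stretch that differs from the direct repeat of AGGTCA with a 1-base spacer, on either strand, at 2 or fewer of its fixed positions; marks that overlap run together.
Cd36, chr5:17835897-17836146, minus strand: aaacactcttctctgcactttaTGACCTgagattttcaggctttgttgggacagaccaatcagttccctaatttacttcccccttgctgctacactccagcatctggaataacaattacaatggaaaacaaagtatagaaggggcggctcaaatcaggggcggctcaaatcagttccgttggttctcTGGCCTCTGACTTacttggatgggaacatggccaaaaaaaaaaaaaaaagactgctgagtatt
Slc27a2, chr2:126552774-126553023, plus strand: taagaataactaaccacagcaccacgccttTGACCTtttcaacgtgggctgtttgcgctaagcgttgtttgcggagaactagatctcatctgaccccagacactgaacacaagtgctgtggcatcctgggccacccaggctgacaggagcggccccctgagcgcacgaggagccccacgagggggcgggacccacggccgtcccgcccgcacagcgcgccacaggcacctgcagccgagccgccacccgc
Fabp1, chr6:71199629-71199878, plus strand: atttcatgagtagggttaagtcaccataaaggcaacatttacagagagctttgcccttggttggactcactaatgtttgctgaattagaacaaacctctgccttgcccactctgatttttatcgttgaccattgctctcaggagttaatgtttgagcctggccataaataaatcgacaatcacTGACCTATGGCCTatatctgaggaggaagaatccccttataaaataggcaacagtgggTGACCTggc
Fgf21, chr7:45615491-45615740, minus strand: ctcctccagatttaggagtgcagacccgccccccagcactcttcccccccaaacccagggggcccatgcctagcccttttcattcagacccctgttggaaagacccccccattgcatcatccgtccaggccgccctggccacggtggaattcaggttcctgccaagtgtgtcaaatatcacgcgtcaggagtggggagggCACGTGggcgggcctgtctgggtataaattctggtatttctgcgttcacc
In Fabp1 the 13-base stretch 67 to 55 bases before the start differs from the repeat at 1 position, and it contains the reverse complement of AGGTCA. In Cd36 the stretch 63 to 51 bases before the start differs at 2 positions. Slc27a2 has only the 6-letter motif, 220 to 215 bases before its start, and Fgf21 has the E-box 50 to 45 bases before its start. Searched over windows of 300 bases (250 before to 50 after the start), 30 of the 35 genes had an entry, and 10 of these (33.3%) held AGGTCA on either strand, beside 16.3% of all 32851 windows. A 13-base stretch with at most 2 differences was found in 6 of the 30 genes (20%) and in 3.86% of all windows, and an exact repeat in none of the 30 and in 0.0396% of all windows. CACGTG was found in Plin2, Fgf21 and Acot4 (10% of the 30, beside 7.15% of all windows). The units differ: a gene of the 30 counts if any of its windows matches, while the shares of all windows are per window. Acot3, Acsl1, Bdh1 and Creb3l3 have more than 1 window, which raises their chance to count. All of these are matches of letters in short windows and say nothing of binding.

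None of the 4 carnitine shuttle genes and none of the 11 mitochondrial genes passed the test. Cpt1a (mm9 chr19:3323301-3385732), the entry step that loads acyl groups onto carnitine, ran from 368 to 946 CPM in KO livers with a median of 590 CPM, and from 251 to 938 CPM in WT livers with a median of 496 CPM. The genotypes overlapped throughout, and the difference was 0.17 ± 0.12 (SE, log2; adjusted p = 0.440). The carnitine acyltransferases Cpt2 and Crat gave 0.13 ± 0.08 and -0.09 ± 0.15, and the carrier Slc25a20 gave 0.04 ± 0.09. Of the mitochondrial genes, 9 had a difference above 0 and 2 below, with a median of 0.11. At an unadjusted p under 0.05 there were 4 (Acadm, Hadh, Decr1 and Ech1), or 36.4% of the 11, beside 17.1% of all genes. The differences ran from -0.02 ± 0.11 for Acads, the short-chain acyl-CoA dehydrogenase, to 0.31 ± 0.10 for Decr1, the reductase needed for unsaturated fatty acids (adjusted p = 0.103). Decr1 ran from 332 to 1092 CPM in KO livers with a median of 620 CPM, and from 327 to 882 CPM in WT livers with a median of 521 CPM, and its KO mean was higher at 6 of 6 times. It passed the test without KO 16 h replicate 2 (0.36, adjusted p = 0.0247), without WT 16 h replicate 2 (0.34, adjusted p = 0.0406) and without both 16 h groups (0.34, adjusted p = 0.0315). Among the steadiest of the group was Acadvl, the very-long-chain dehydrogenase, with 649 to 964 CPM in KO livers and 657 to 1034 CPM in WT livers and a difference within 0.05 (1 SE) of 0.

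The 4 peroxisomal genes gave -0.06 ± 0.15 for the thiolase Acaa1a, 0.09 ± 0.15 for its paralog Acaa1b, 0.08 ± 0.19 for the bifunctional enzyme Ehhadh and 0.08 ± 0.13 for the peroxisome division factor Pex11a, none past the test. Ehhadh varied widely between mice, from 416 to 3608 CPM in KO livers and from 370 to 2880 CPM in WT livers. The thioesterases, which release free fatty acids from acyl-CoA, were all above 0: 0.13 ± 0.18 for Acot1, 0.24 ± 0.15 for Acot3 and 0.33 ± 0.14 for Acot4, the highest of the 3, with an adjusted p of 0.210. Values of these paralogs are less certain than those of single-copy genes. In their longest protein-coding transcripts, 34% of the 50-base windows of Acaa1a and 35.5% of those of Acaa1b also occur in the other gene. For Acot1, Acot3 and Acot4, 32.1%, 7.69% and 4.48% of windows also occur in another gene of Acot1 to Acot6. The kit did not keep strand, and Acaa1a overlaps Myd88 and Crat overlaps Dolpp1 in the deposited coordinates, with median counts of 252.5 beside 3120.5 and 174.5 beside 2267 per library.

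Bdh1, the mitochondrial enzyme that interconverts the 2 ketone bodies, ran from 110 to 675 CPM in KO livers, and from 181 to 528 CPM in WT livers. Its difference was 0.33 ± 0.12 (SE, log2; adjusted p = 0.140). It passed the test without KO 16 h replicate 2, its lowest liver, at 0.39 with an adjusted p of 0.0291, and without both 16 h groups, at 0.415 with an adjusted p of 0.0382. Pdk4, the kinase that shuts pyruvate dehydrogenase, gave 0.26 ± 0.28 and the uncoupling protein gene Ucp2 -0.19 ± 0.30. The hormone gene Fgf21 (mm9 chr7:52869277-52870860) ran from 1.43 to 44.4 CPM in KO livers with a median of 8.57 CPM, and from 1.12 to 41.1 CPM in WT livers with a median of 8.995 CPM; the genotypes covered the same range and the difference was -0.17 ± 0.28 (adjusted p = 0.753). The lipase inhibitor Angptl4 gave 0.07 ± 0.10 and the lipid droplet coat gene Plin2 0.19 ± 0.14. For the receptor itself, Ppara (mm9 chr15:85565413-85633249), values were 17.7 to 125 CPM in KO livers with a median of 71.2 CPM, and 20.3 to 93.2 CPM in WT livers with a median of 64.0 CPM. The difference was 0.16 ± 0.17 (SE, log2; adjusted p = 0.602). Creb3l3 (mm9 chr10:80547069-80561619), a membrane-bound transcription factor that acts with PPARalpha on Fgf21, ran from 277 to 682 CPM in KO livers with a median of 403 CPM, and from 294 to 661 CPM in WT livers with a median of 394 CPM. Its difference was -0.05 ± 0.09 (adjusted p = 0.755).

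At single times none of the 35 genes passed edgeR's test, and few genes of any kind did: 0.0147% at 0 h, 0.0366% at 4 h, 0% at 8 h, 0% at 12 h, 0.022% at 16 h and 0% at 20 h. DESeq2 called none of the 35 at any time. At an unadjusted p under 0.05 there were 4 of the 35 at 0 h, 5 at 4 h, 1 at 8 h, 1 at 12 h, 3 at 16 h and 0 at 20 h, beside 5.53%, 23.3%, 1.82%, 4.4%, 6.65% and 1.84% of all genes. The number of the 35 with a KO mean above the WT mean was 32 at 0 h, 18 at 4 h, 30 at 8 h, 28 at 12 h, 11 at 16 h and 34 at 20 h. Their median log2 difference was 0.30, 0.01, 0.15, 0.21, -0.10 and 0.23 at these times, while the median of all genes stayed between -0.01 and 0.01. The 16 h groups are those with 3 KO and 5 WT livers. At 0 h, where 32 were above 0, all 12 macrophage and Kupffer cell markers were below 0 in the same livers, and their part in the result was not tested. In some livers nearly all of the genes moved the same way, as described below, so these counts are not 35 separate observations.

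The lowest p-values at single times belonged to Cd36 at 12 h (1.10 ± 0.35, adjusted p = 0.908), Bdh1 at 0 h (0.87 ± 0.28, adjusted p = 0.509) and Fabp1 at 4 h (1.32 ± 0.44, adjusted p = 0.129), none of them past the test. At 0 h Bdh1 had 586.8, 391.5, 481.9 and 459.9 CPM in KO livers, against 337, 210, 181 and 324 CPM in WT livers. At 4 h Fabp1 had 4549, 7566, 16380 and 9090 CPM in KO livers, against 2656, 3232, 5149 and 4022 CPM in WT livers. Bdh1 did not overlap between genotypes, and for Fabp1 only KO replicate 1 fell within the WT range.

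Each of the 48 libraries was left out in turn. Leaving out that liver, KO 4 h replicate 1, gave the most single-time calls, so the calls below come from the most extreme of these runs. Without KO 4 h replicate 1 edgeR called 3354 of 13631 genes at 4 h (24.6%). In that run 7 of the 35 passed the test at 4 h, a share of the 35 close to that of all genes. Higher in the 3 remaining KO livers were Fabp1 (1.55 ± 0.45, adjusted p = 0.0197), Cd36 (1.20 ± 0.37, adjusted p = 0.0223), Vnn1 (1.12 ± 0.42, adjusted p = 0.0455), Ech1 (0.76 ± 0.24, adjusted p = 0.0234) and Decr1 (0.75 ± 0.25, adjusted p = 0.0326). Lower were Crat (-1.20 ± 0.36, adjusted p = 0.0205) and Acsl1 (-0.92 ± 0.32, adjusted p = 0.0372). Acsl1 had 1418 CPM in KO 4 h replicate 1 and 774, 655 and 649 CPM in the other 3 KO livers, against 1177, 1424, 1555 and 1113 CPM in WT livers. Crat had 231 CPM in that liver and 101, 65.3 and 67.0 CPM in the other 3, against 176, 214, 178 and 146 CPM in WT livers. In both genes replicate 1 lay within or above the WT range and the other 3 KO livers below it. What sets this library apart was not tested. Leaving out both 16 h groups, which changes the shared estimate of spread, also raised the 4 h calls, to 4.07% of genes with Cd36, Fabp1 and Decr1 among them.

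**Figure D3:**
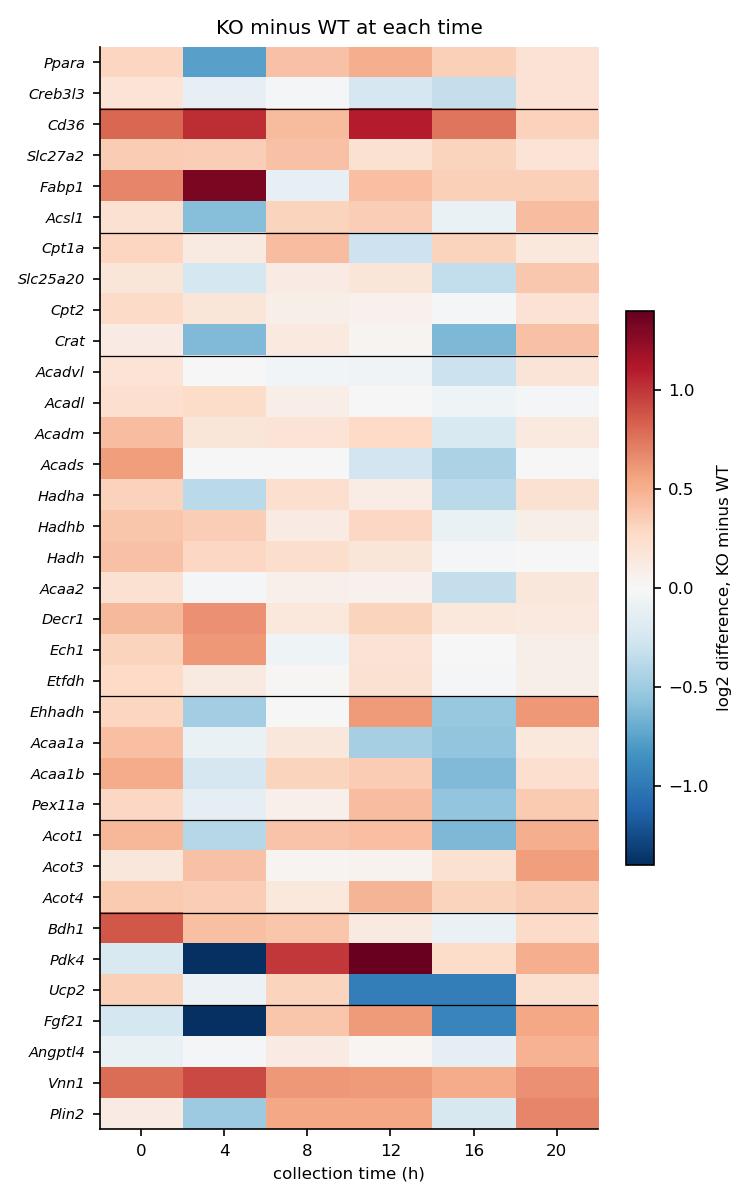
The log2 difference of KO minus WT at each collection time (columns, in hours) is coloured for each of the 35 genes (rows, with lines between the role groups), red for higher and blue for lower in KO livers. The 0 h and 20 h columns are mostly red and the 16 h column mostly blue. Cd36, Slc27a2 and Vnn1 are above 0 in all 6, as are Decr1, Acot3 and Acot4, which did not pass the mean test. Pdk4 runs from -1.39 at 4 h to 1.38 at 12 h without passing the test at any time.

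No gene of the 35 passed the test of a genotype difference that changes with time (edgeR adjusted p of at least 0.953), where 0.00733% of all genes did. DESeq2 also called 0 of the 35, and 0 of the 35 reached an unadjusted p of 0.05. The lowest unadjusted values were those of Acadvl, Pdk4 and Plin2, at 0.0823, 0.0951 and 0.118.

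Part of the list followed the time of day in each genotype. A 24 h cosine fitted per genotype was past the test for 8 of the 35 in KO livers (17% of all genes) and for 9 of the 35 in WT livers (16.3% of all genes). Pdk4, Angptl4, Acsl1, Plin2, Acot1, Crat and Cpt2 passed in both genotypes. Creb3l3 passed in KO livers (adjusted p = 0.0264, against 0.220 in WT livers), and Fgf21 and Pex11a passed in WT livers (adjusted p = 0.0636 and 0.101 in KO livers, 0.0314 and 0.0449 in WT livers). For these 10 genes the fitted peaks lay between 17.9 and 22.7 h in KO livers and between 16.8 and 23.8 h in WT livers, with the low points from 4 to 16 h.

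Pdk4 (mm9 chr6:5433351-5446309) had the largest amplitude of the 35 genes. In KO livers its highest mean was 203 ± 103 CPM (20 h) and its lowest 23.6 ± 12.9 CPM (4 h), against 176 ± 17.1 CPM (0 h) and 17.9 ± 6.16 CPM (8 h) in WT livers (SD, n = 4 each), an 8.63-fold span in KO livers and a 9.81-fold span in WT livers. The 4 KO livers at 4 h had 21.8, 20.9, 41.3 and 10.4 CPM, against 23.4, 132, 31.7 and 59.3 CPM in WT livers. At 12 h they had 13.8, 47.3, 218 and 40.5 CPM, against 41.1, 44.7, 10.7 and 25.9 CPM in WT livers. Every WT liver at 0 h lay above every WT liver at 8 h and 12 h, while among KO livers at 12 h replicate 3 stood far above the other 3. The fitted amplitude was 1.72 ± 0.30 log2 units with a peak at 19.1 ± 0.67 h in KO livers, and 1.65 ± 0.28 with a peak at 21.2 ± 0.62 h in WT livers (SE; edgeR adjusted p = 0.00155 and 0.00055). The test of the difference between these rhythms gave an adjusted p of 1.00 (0.0915 unadjusted).

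Acsl1, the synthetase that activates long-chain fatty acids, had its highest mean at 0 h in both genotypes, 1920 ± 267 CPM in KO livers and 1651 ± 297 CPM in WT livers. Its lowest mean was 874 ± 367 CPM at 4 h in KO livers, against 715 ± 192 CPM at 12 h in WT livers. Plin2 averaged 1829 ± 434 CPM at 20 h and 851 ± 405 CPM at 16 h in KO livers, against a high of 1657 ± 81.3 CPM at 0 h and a low of 600 ± 95.0 CPM at 8 h in WT livers (SD, n = 4, and 3 for KO at 16 h). Crat ran from 280 ± 40.2 CPM at 0 h down to 116 ± 78.2 CPM at 4 h in KO livers, against 258 ± 72.2 CPM at 0 h and 106 ± 21.9 CPM at 8 h in WT livers. In all 3 genes the KO mean had already reached its low range by 4 h, where the WT means were still 1317, 1289 and 179 CPM for Acsl1, Plin2 and Crat. Among the alternatives run, that gap at 4 h passed the test only without KO 4 h replicate 1, and then for Acsl1 and Crat. The fitted peak of Acsl1 was at 21.9 ± 1.00 h in KO livers and 23.8 ± 0.79 h in WT livers (SE). These intervals of 1 SE do not overlap, but edgeR's test of the rhythm difference gave an unadjusted p of 0.577 for Acsl1. Plin2 peaked at 21.9 ± 1.14 h in KO livers and 23.4 ± 0.76 h in WT livers, and Crat at 21.1 ± 0.98 h and 21.8 ± 0.93 h.

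Acot1 had amplitudes of 0.83 ± 0.24 in KO livers and 0.73 ± 0.15 in WT livers, with peaks at 20.3 ± 1.15 h and 19.7 ± 0.77 h. Angptl4 had 0.53 ± 0.10 and 0.47 ± 0.12, with peaks at 17.9 ± 0.67 h in KO livers and 17.5 ± 1.03 h in WT livers. Cpt2 had 0.38 ± 0.07 and 0.28 ± 0.08, with peaks at 22.7 ± 0.77 h in KO livers and 21.6 ± 1.07 h in WT livers. In all 3 the intervals of 1 SE overlapped between genotypes, for the amplitude and for the peak. Fgf21 had 0.92 ± 0.34 in KO livers and 1.15 ± 0.28 in WT livers. At 0 h it had 21.8, 17.0, 11.5 and 41.5 CPM in KO livers, against 41.1, 17.9, 15.04 and 34.8 CPM in WT livers, and at 8 h 6.47, 11.9, 2.13 and 4.28 CPM, against 5.44, 4.78, 4.65 and 3.97 CPM. The 0 h livers of each genotype lay above its 8 h livers, except that the lowest KO liver at 0 h was just under the highest at 8 h.

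Several of these calls were near the threshold and were lost when any 1 of several libraries was left out. In WT livers Crat lost its call without WT 0 h replicate 1, WT 8 h replicate 2 or WT 12 h replicate 1 (adjusted p up to 0.0593). Fgf21 in WT livers lost it without WT 0 h replicate 1 or 4, WT 8 h replicate 2 or 3 or WT 12 h replicate 1 or 2 (up to 0.0860). Cpt2 in WT livers lost it without WT 0 h replicate 1 or 2, WT 8 h replicate 1 or 4, WT 12 h replicate 1 or 2 or WT 20 h replicate 1 or 3 (up to 0.0798). Pex11a in WT livers lost it without each of 17 single libraries in turn: KO 12 h replicate 2, KO 16 h replicate 1, WT 0 h replicates 3 and 4, any of the 4 WT livers at 4 h, WT 8 h replicates 1 and 3, WT 12 h replicates 1 and 2, WT 16 h replicates 1, 2 and 5 and WT 20 h replicates 1 and 3 (up to 0.138, without WT 16 h replicate 5). Creb3l3 lost its call in KO livers without KO 0 h replicate 3, KO 8 h replicate 3 or 4 or KO 20 h replicate 1 (up to 0.0853). Without KO 16 h replicate 3, 13 of the 35 genes were past the test in KO livers, with Fabp1, Decr1, Ech1, Bdh1 and Fgf21 added. Calls in KO livers over all genes rose in the same run, from 2322 to 3691, so the gain was not particular to the list.

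**Figure D4:**
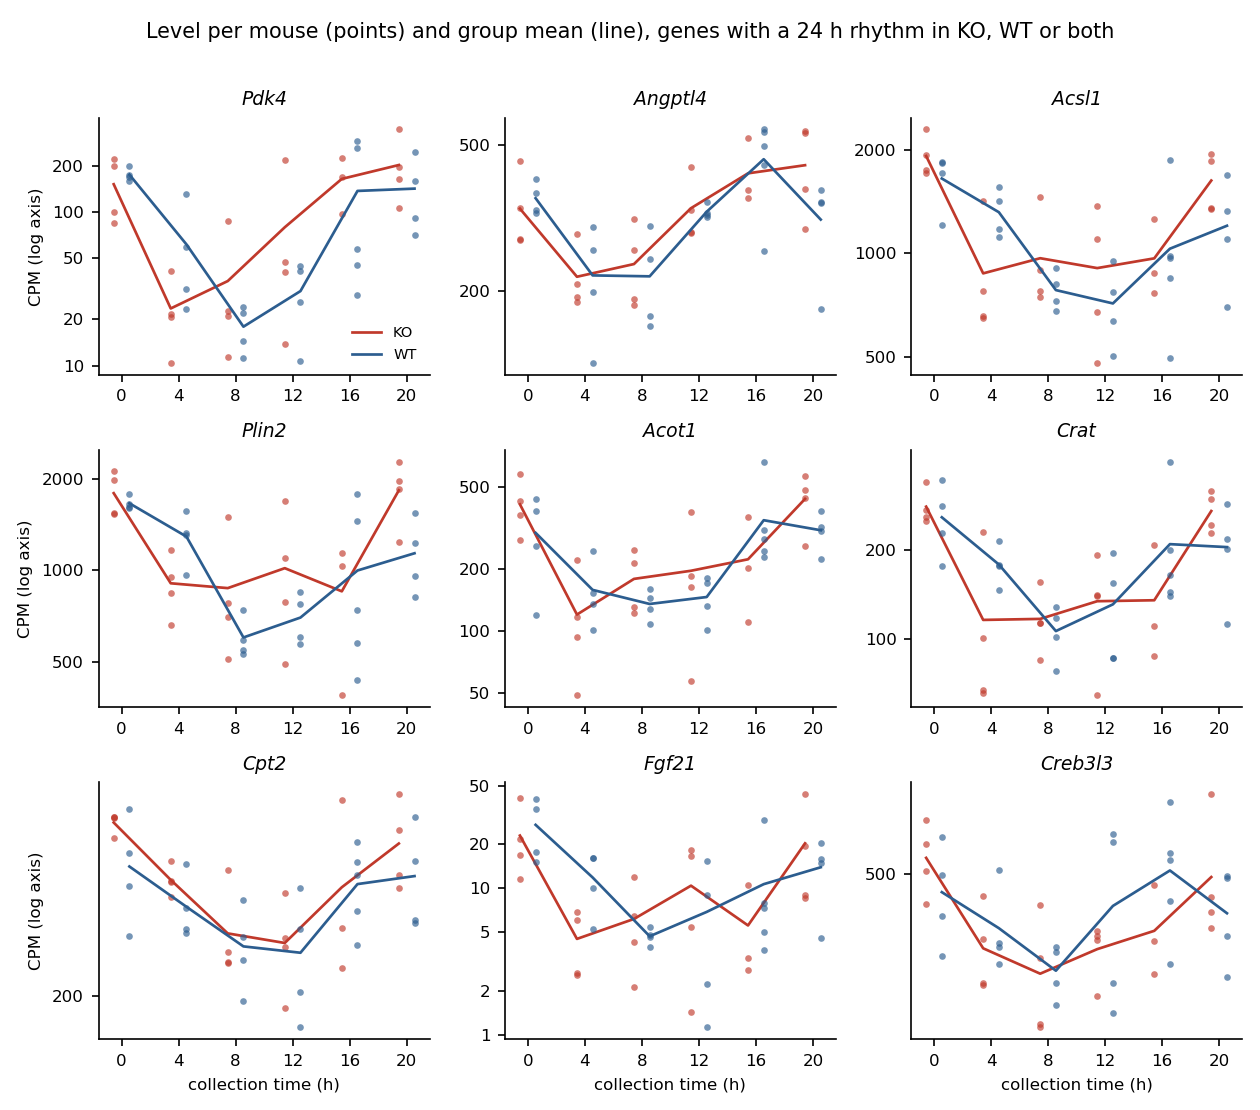
CPM on a log axis in each mouse (points) and the group mean (lines) are plotted against collection time in hours for 9 of the 10 genes with a 24 h rhythm in KO livers, WT livers or both (Pex11a is not shown), with KO in red to the left of WT in blue. Pdk4 spans 8.63-fold between its KO means and 9.81-fold between its WT means, and most lines are high at 0 and 20 h and low between 4 and 12 h.

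No mitochondrial beta-oxidation gene was called rhythmic by edgeR, 0 of 11 in KO livers and 0 of 11 in WT livers. Of all genes, 17% and 16.3% were called. At an unadjusted p under 0.05 there were 1 and 5 of the 11, beside 34.3% and 31.5% of all genes. DESeq2 called none in KO livers and Acadvl and Acaa2 in WT livers. Ppara and Cpt1a were not past the test either: Ppara had amplitudes of 0.33 ± 0.23 in KO livers and 0.12 ± 0.18 in WT livers (adjusted p = 0.291 and 0.944), and Cpt1a 0.14 ± 0.10 and 0.06 ± 0.13 (adjusted p = 0.651 and 0.973). Ppara had 30.1, 32.6, 31.6 and 33.6 CPM at 4 h in KO livers, the tightest of its 12 groups, against 31.3, 38.0, 80.2 and 67.1 CPM in WT livers. Cd36, Slc27a2 and Vnn1, the genes with a genotype difference, had amplitudes of at most 0.28 and were not past the rhythm test in either genotype.

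The test of the rhythm difference itself called 0 of the 35 genes and 0.00733% of all genes, and DESeq2 called 0 of the 35; none reached an unadjusted p of 0.05. The lowest unadjusted values were those of Acads (0.0525), Acadvl (0.0753) and Bdh1 (0.0858). A call in KO livers but not in WT livers, or the reverse, is therefore not a difference between them that passed a test.

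In some livers nearly all of the 35 genes lay on the same side of their group mean, while others split evenly. In KO 0 h replicate 1, 17 lay above and 18 below, and in WT 8 h replicate 2, 18 above and 17 below. The same measure was not taken for other genes, so it does not show whether this is particular to the list. In KO 12 h replicate 1 all 35 lay below the mean of their group, with a median deviation of -0.47 log2 units, and in KO 8 h replicate 2 there were 34 above it (median 0.41). In KO 12 h replicate 3, WT 0 h replicate 1 and WT 16 h replicate 5 there were 33 above, and in WT 0 h replicate 3 only 1. Their summed share of a library ran from 1.33% to 3.47%. The summed level of the 35 had a median of 27180 CPM in KO livers (14910 to 36400) and 23130 CPM in WT livers (17130 to 34930), ranges that overlap almost wholly. Within groups, the spread between mice was 1.04 and 0.99 log2 units (SD) for Pdk4 in KO and WT livers and 0.12 and 0.15 for Acadvl.

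**Figure D5:**
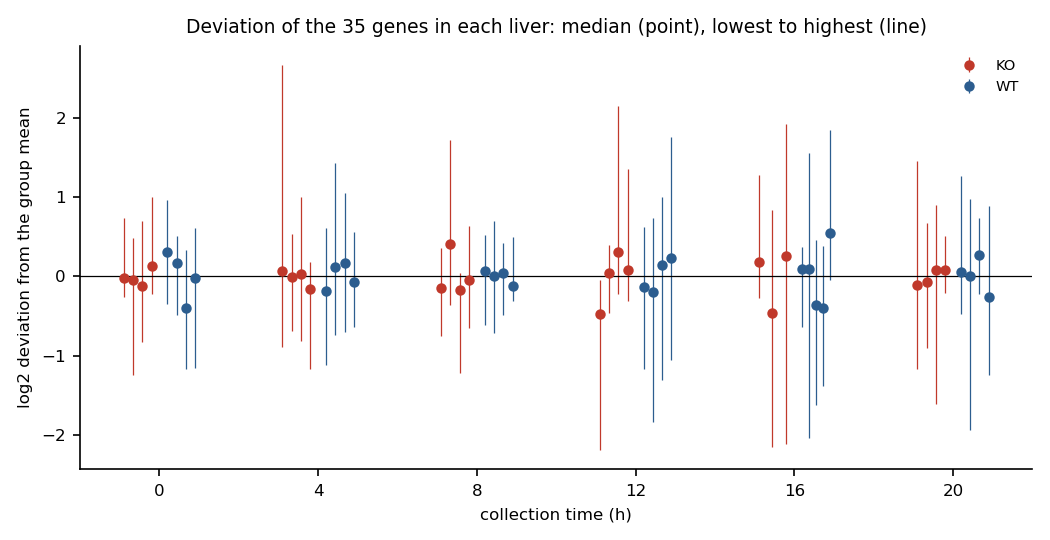
For each liver, the median (point) and the lowest to highest value (line) of the log2 deviation of the 35 genes from their group mean are plotted against collection time in hours, with KO in red to the left of WT in blue. The medians run from -0.47 in KO 12 h replicate 1 to 0.55 in WT 16 h replicate 5, and the longest upward line is KO 4 h replicate 1.

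Of 127 other genes of the same pathways on a fixed list, 122 were tested. Over the 6 times the median log2 difference of the 122 was 0.05. At an unadjusted p under 0.05, 22 were higher in KO livers and 5 lower (22.1% together, beside 17.1% of all genes). After adjustment 1 was higher in KO livers and 0 lower, beside 1.4% of all genes called in either direction. The gene was Fitm1, a fat storage-inducing membrane protein, at 23.5 CPM (median) in KO livers and 17.3 CPM in WT livers, with a difference of 0.72 ± 0.20 (SE, log2; edgeR adjusted p = 0.0488). DESeq2 also called Fitm1, but the call is fragile: it was lost in 34 of the 55 alternatives, most of them with a single library left out, with adjusted p up to 0.149 and a difference that stayed above 0. The Cyp4a and omega-oxidation genes, which PPARalpha agonists induce, had 0 of 7 past any test, with a median of -0.01 and 1 at an unadjusted p under 0.05 over the 6 times; DESeq2 also called 0. A 24 h rhythm was called for 26 of the 122 in KO livers and 27 in WT livers, beside 17% and 16.3% of all genes. The clearest were Slc16a6 and Slc16a1, carriers of ketone bodies and other monocarboxylates, Plin5, a droplet coat protein of oxidative tissues, Lpin1, a PPARalpha coactivator and phosphatidate phosphatase, and Pparg, a paralog of the receptor. Their amplitudes were 0.81, 0.84, 0.98, 1.398 and 0.79 log2 units in KO livers and 1.15, 0.86, 0.84, 1.86 and 0.51 in WT livers (largest adjusted p of the 5 genes 2.2e-05 in KO and 0.000908 in WT livers). None of the 122 passed the interaction or the rhythm difference test.

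Markers of other cell types were set beside the genotype difference. Of 8 fat cell markers 4 had counts enough to test and 0 passed the mean test (2 at an unadjusted p under 0.05, 1 higher and 1 lower, and 0 by DESeq2). Their summed level ran from 182 to 3319 CPM with a median of 1003 CPM in KO livers, and from 176 to 1677 CPM with a median of 687 CPM in WT livers. Nearly all of it was Car3, which hepatocytes also express, while Adipoq, Plin1, Lep and Cfd were too low to test. The 12 macrophage and Kupffer cell markers summed to 169 to 903 CPM in KO livers (median 494 CPM) and 179 to 1648 CPM in WT livers (median 386 CPM), with 0 past the mean test at either the adjusted or the unadjusted threshold and 0 by DESeq2. Single times differed for these markers: at 0 h all 12 were below 0 (median log2 difference -1.12), 10 of them at an unadjusted p under 0.05 though 0 past the adjusted test or by DESeq2, while 11, 12 and 11 of the 12 were above 0 at 12, 16 and 20 h. At 0 h their sum ran from 169 to 529 CPM in KO livers and from 276 to 1648 CPM in WT livers, the highest being WT replicate 3. The 9 endothelial markers summed to 147 to 353 CPM in KO livers (median 238 CPM) and 163 to 316 CPM in WT livers (median 233 CPM), with 0 past the test, 1 at an unadjusted p under 0.05 and 0 by DESeq2. Cd36 is also expressed by macrophages, endothelium and fat cells, and the part of these cells in its difference was not tested. Of the 7 hepatocyte markers 6 were below 0 in the mean over 6 times (median log2 difference -0.15), with 1 at an unadjusted p under 0.05, lower in KO livers, and 0 called by edgeR or DESeq2. In the same mean test, stellate cell markers had 2 of 7 and bile duct markers 2 of 5 lower at an unadjusted p under 0.05 and 0 called by edgeR, while DESeq2 called Des and Hand2 of the stellate list and Krt7 of the bile duct list. Of the 6 lymphocyte markers 1 was lower at an unadjusted p under 0.05, of the 5 red blood cell markers 0, and neither list had a call by edgeR or DESeq2. Pancreas markers had 2 of 2 higher and adrenal markers 1 of 2 lower at an unadjusted p under 0.05, with 0 called by edgeR and, by DESeq2, Star of the adrenal list, all in the mean test.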

How the data were processed

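RNA from 48 mouse livers was sequenced from poly-A libraries of a kit that does not mark strand. The tools STAR 2.4.1d and CASAVA and the build mm9 are listed, per the submitters' processing notes. The values are whole-number read counts per gene, as deposited by the authors under a name that holds the word sense. The sources used here do not explain that word for a kit that does not mark strand. They name neither the counting tool nor the annotation. Totals are nearly equal across libraries, and whether reads were thinned to reach this was not tested.

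Alb, which the table marks as highly expressed, was left out of totals and tests. Genes were kept with edgeR's filter (minimum count 10, minimum total 15), which left 13646 and removed 8707. Counts were scaled by TMM and tested with edgeR 4.0.16 (quasi-likelihood F test; R 4.3.3, limma 3.58.1) on 12 group means from all 48 libraries, or on a 24 h cosine per genotype, with Benjamini-Hochberg adjustment at 0.05 over all genes tested. SE is the log2 difference divided by the square root of F. CPM are TMM-scaled; amplitudes and peaks are least squares fits to log2 CPM with a prior count of 2. No 2 libraries of a group agreed within sampling noise (lowest chi-square per degree of freedom 20.55). The steps were tested on simulated data.

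The genes and lists were chosen with earlier results of these data known. Genes were described in full if past the mean, single-time, interaction or rhythm difference test, together with Ppara, Cpt1a, Fgf21, Pdk4 and Creb3l3 and the 8 genes of lowest rhythm p in WT; where no gene passed a test, the 3 lowest p were named. The labels do not say that replicates came from separate litters or batches, so p-values set differences against the spread between these mice only. Alternatives were DESeq2 1.42.0, its size factors, no filter, a replicate block, an F test of the time means, and leaving out each library, 3 libraries of unusual gene content, 3 with high Saa1, or both 16 h groups.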

Additional observations from a re-analysis of the deposited data

Results flagged for a closer look

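Of 385 sets of 4 or 5 mice (1 gene in 1 group), 22 held a mouse separated from the others by a gap large against the range of the set; chance gives about 1 in 20. Values are CPM.

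KO 4 h replicate 1 held 4 of them: Acsl1 at 1418 (648.7 to 774.3 in the other mice of the group), Acads at 240.6 (133.5 to 151.4), Etfdh at 410.7 (650.5 to 684) and Ucp2 at 38.59 (2.551 to 3.622). In WT 16 h replicate 5, Crat was at 398.3 (139.2 to 199.9), Acot1 at 665.2 (230.2 to 309.1) and Fgf21 at 29.29 (3.814 to 7.954). KO 8 h replicate 2 had Cpt2 at 341.8 (230.3 to 240.8) and Pdk4 at 86.98 (11.36 to 22.74). WT 12 h replicate 3 had Hadhb at 299.8 (383.9 to 396.5) and Acot3 at 623.6 (366.1 to 408.8).

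The other 11 came from 11 libraries. In KO livers they were Cpt2 at 390.5 in 0 h replicate 1 (425.3 to 426.2), Vnn1 at 305.9 in 0 h replicate 3 (471.9 to 505.7), Ehhadh at 1194 in 4 h replicate 3 (787.6 to 827.4), Creb3l3 at 313.6 in 12 h replicate 1 (389 to 402.5), Pdk4 at 217.5 in 12 h replicate 3 (13.79 to 47.32) and Ucp2 at 27.54 in 12 h replicate 4 (7.159 to 9.435). In WT livers they were Acads at 199.6 in 0 h replicate 1 (98.78 to 112.8), Acadm at 505.5 in 0 h replicate 3 (862.5 to 928.5), Ehhadh at 535 in 4 h replicate 1 (1435 to 1588), Acadl at 457.5 in 4 h replicate 2 (369.4 to 379.2) and Angptl4 at 177.9 in 20 h replicate 4 (346.4 to 375.9).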

How the results depend on the processing

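Where a count or a sign changed, the cause was not tested. In the mean over 6 times, 3 of the 35 genes were called; 5 were called without the 3 libraries of unusual gene content, 5 without both 16 h groups, and 2 to 6 with single libraries left out (6 without KO 16 h replicate 2). All genes called in that test numbered 191, against 356 with DESeq2, 122 with no low-count filter, 303 without the libraries of unusual gene content, and 99 (without KO 16 h replicate 3) to 484 (without KO 4 h replicate 1) with single libraries left out. At single times the 35 genes had 0 calls, 3 without both 16 h groups and 0 to 7 with single libraries left out; all genes had 10 calls, 225 with DESeq2, 16 without the libraries of unusual gene content, 3 without those with high Saa1, 545 without both 16 h groups, and 1 (without WT 0 h replicate 3) to 3360 (without KO 4 h replicate 1). The interaction called 1 gene, 11 with DESeq2, 0 without the libraries of unusual gene content and 0 to 3 with single libraries left out. The rhythm difference called 1 gene, 5 with DESeq2 and 1 to 2 with single libraries left out. In WT livers the rhythm test called 9 of the 35 and 2228 genes, against 5 and 1167 by the F test of the time means. In KO livers it called 8 of the 35, 7 to 13 with single libraries left out (13 without KO 16 h replicate 3), and 2322 genes, against 1328 by the F test, 1399 without the libraries with high Saa1 and 1628 to 3691 with single libraries left out. Without both 16 h groups, Angptl4 and Pex11a lost their WT rhythm calls (adjusted p = 0.150 and 0.301), and Pex11a and Fgf21 became called in KO livers (0.0134 and 0.0248). With no low-count filter Cpt2 and Pex11a lost their WT calls (0.0739 and 0.0669). By the F test Cpt2, Crat, Fgf21 and Pex11a lost theirs in WT livers (0.216, 0.0904, 0.102 and 0.117) and Creb3l3 in KO livers (0.120), while Fgf21 became called there (0.0468). Without the libraries with high Saa1, Creb3l3 in KO livers (0.101) and Pex11a in WT livers (0.0567) lost theirs, and without those of unusual gene content Pex11a became called in KO livers (0.0244).

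The labels do not say that a replicate number marks a shared litter or day. Of 23 same-numbered pairs, 14 correlated above 0.1 and 9 did not (-0.456 to 0.607 over 2000 genes). Of 46 mice, 17 correlated best with their own number. No chance level was computed for these counts, so they do not decide whether the numbers mark a pairing. The numbers were not taken as one because no label says so. With the replicate block, 124 genes were called in the mean, 0 at single times, 0 in the interaction and 0 in the rhythm difference, and Vnn1 gave an adjusted p of 0.0541.

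Signs turned only for genes near 0 that were never called. Without both 16 h groups the differences were 0.00791 for Creb3l3, 0.0173 for Crat, 0.0385 for Acaa1a, 0.0613 for Acadvl and 0.0717 for Acads. Acadvl was 0.00236 with no filter, 0.00554 with the replicate block and 0.00939 without the libraries of unusual gene content; Acads was 0.0280 with the block. With single libraries left out, the range was -0.0145 to 0.0179 for Acadvl, -0.0565 to 0.0325 for Acads, -0.00532 to 0.0736 for Slc25a20, -0.0340 to 0.0640 for Hadha and -0.150 to 0.0117 for Acaa1a.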
